A study of Mus musculus with 19 samples.

Results

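Expression of 10 genes of MHC class I antigen presentation was described across 10 mouse liver tumours, numbered 04 to 13. The genes are the class I light chain B2m, the classical heavy chains H2-K1 and H2-D1, the peptide transport and loading genes Tap1, Tap2 and Tapbp, the immunoproteasome subunits Psmb8, Psmb9 and Psmb10, and the transactivator Nlrc5. They were matched by symbol to 10 of the 39179 gene identifiers of the count table, and all 10 were among the 12462 genes abundant enough to test. All mice were male, were heterozygous (HET) for Ctnnb1tm1Mmt and homozygous (HOM) for the Gt(ROSA)26Sortm1(MYC)Djmy allele, and were given AAV8.TBG.PI.Cre.rBG at 640000000 genome copies per mouse. The TBG promoter drives Cre in hepatocytes, which places recombination in these cells, whereas the sequenced RNA came from whole tumours and includes stromal, immune and blood cells. The series holds 13 tumours, 3 control livers and 3 livers of a high AAV control. The other 3 tumours and both kinds of control were not analysed here, because their columns could not be matched to a sample, and nothing here compares a tumour with liver outside tumours.

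Class I molecules show short peptides of a cell's own proteins to CD8+ T cells. The proteasome cuts the proteins, the TAP transporter carries the peptides into the endoplasmic reticulum, tapasin and its partners load them onto the heavy chain with β2-microglobulin, and the complex moves to the cell surface. Interferon-γ, made mainly by T and NK cells, raises most of these genes through transcription factors such as IRF1 and NLRC5, and replaces the 3 catalytic proteasome subunits by the immunoproteasome forms. Hepatocytes are known for low class I levels at rest.

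The libraries held 11687034 to 36964427 counts over genes (median 16664597), at which 3 counts correspond to 0.0812 to 0.257 CPM, the counts of a gene per 1000000 counts. Each column carries a tag, which the labels do not explain. Tumour 04 had the tag RMH4_5b, tumours 05 and 06 RMH4_5c, 07 and 08 RMH18_1d, 09 and 10 RMH35_1b, and 11, 12 and 13 RMH35_1c. Nothing says that tumours of 1 tag came from separate mice, so the p-values below measure the spread between these tumours and may overstate their independence. Short nuclear RNAs, used as a sign of RNA or library quality, summed to 48.8 to 86.2 CPM in tumours 05, 06 and 07 and to 2.01 to 7.51 CPM in the other 7. Hepatocyte genes were abundant in every tumour, with Alb, which encodes albumin, at 13016 to 22960 CPM.

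Of the 10 genes, 7 lie on chromosome 17, in the mouse major histocompatibility complex. Psmb9, Tap1, Psmb8 and Tap2 follow each other there between positions 34182030 and 34216321 (GRCm38.p6). RefSeq promoter windows of 300 bases, from 250 before to 50 after the annotated start, were given for 8 of the 10 genes. Nlrc5 and Tap2 had none, and of the 2 windows given for H2-K1 the first listed was used, whose start lies inside the annotated gene. The stretches before the start of 6 genes are printed here. Those of B2m, H2-K1 and H2-D1 are shown for the motifs that the class I genes hold, that of Psmb9 and Tap1 because both genes start from it in opposite directions, and that of Psmb8 because this gene and Psmb9 varied most alike. Capitals mark matches, on either strand, to 5 motifs. They are an interferon-stimulated response element (ISRE) core of GAAA and GAAA with any 2 bases between, a STAT motif TTCNNNGAA, the X2-box core TGACG, the inverted CCAAT box ATTGG, and an NF-κB-like motif of GGG and CCC with any 4 bases between.

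B2m, chr2:122147437-122147686, plus strand: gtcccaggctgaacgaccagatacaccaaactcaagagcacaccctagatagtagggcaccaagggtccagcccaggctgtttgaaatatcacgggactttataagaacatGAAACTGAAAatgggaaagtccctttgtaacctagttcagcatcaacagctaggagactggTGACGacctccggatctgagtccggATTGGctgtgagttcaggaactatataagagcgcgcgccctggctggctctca
H2-K1, chr17:34000348-34000597, minus strand: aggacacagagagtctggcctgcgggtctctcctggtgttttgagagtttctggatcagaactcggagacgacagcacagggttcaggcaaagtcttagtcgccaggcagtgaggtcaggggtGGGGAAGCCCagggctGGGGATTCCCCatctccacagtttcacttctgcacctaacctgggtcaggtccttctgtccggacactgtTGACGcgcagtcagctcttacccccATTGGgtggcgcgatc
H2-D1, chr17:35262844-35263093, plus strand: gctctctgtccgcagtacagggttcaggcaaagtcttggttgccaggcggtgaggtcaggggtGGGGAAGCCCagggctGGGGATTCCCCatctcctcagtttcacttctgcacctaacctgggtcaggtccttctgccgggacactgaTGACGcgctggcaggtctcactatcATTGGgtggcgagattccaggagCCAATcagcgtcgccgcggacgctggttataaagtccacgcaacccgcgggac
Psmb9 to Tap1, chr17:34187331-34187555, plus strand, as Tap1 is read: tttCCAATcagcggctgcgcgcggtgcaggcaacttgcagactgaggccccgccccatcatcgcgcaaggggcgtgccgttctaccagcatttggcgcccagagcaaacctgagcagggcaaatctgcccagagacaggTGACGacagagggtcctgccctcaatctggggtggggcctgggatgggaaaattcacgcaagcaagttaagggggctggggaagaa
Psmb8, chr17:34197945-34198194, plus strand: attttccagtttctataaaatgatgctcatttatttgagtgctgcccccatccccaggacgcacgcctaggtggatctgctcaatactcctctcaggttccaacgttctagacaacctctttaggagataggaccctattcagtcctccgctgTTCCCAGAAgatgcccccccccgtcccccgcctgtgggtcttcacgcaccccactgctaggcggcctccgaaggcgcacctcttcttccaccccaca

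Of the 8 windows, only that of B2m held an exact match to the ISRE core, which was present in 3.49% of all 27025 promoters. The X2-box core was present in B2m, H2-K1, H2-D1, Tap1 and Psmb9, against 21.0% of all promoters. Tap1 and Psmb9 share this match, since their starts are only 225 bases apart and their windows overlap by 275 bases. The inverted CCAAT box occurred in these 5 windows and in that of Tapbp, against 37.9% of all promoters. For this box, too, Tap1 and Psmb9 share the same match. H2-K1 and H2-D1 each had overlapping matches to the NF-κB-like motif, which 11.6% of promoters held, and their windows shared an identical run of 47 bases. Psmb8 was the only window with the STAT motif (8.47% of all promoters), and Psmb10 had no match to any of the 5 motifs. These are exact matches of letters, so altered copies of a motif were not counted, and binding was not measured.

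B2m encodes the light chain of all class I molecules. It was measured at 558, 331, 499, 588, 645, 603, 466, 975, 1260 and 685 CPM in tumours 04 to 13, in that order. Its lowest value was in tumour 05 and the highest in tumour 12, a 3.81-fold range. H2-K1, the K heavy chain, ranged from 466 CPM (tumour 05) to 1153 CPM (tumour 11), with a median of 663. H2-D1, the D heavy chain, ranged from 242 CPM (tumour 04) to 486 CPM (tumour 11), with a median of 277. Tumours 11, 12 and 13 were the 3 highest for B2m and H2-K1. For H2-D1, tumour 06 at 398 CPM lay above tumour 13 at 384 CPM. H2-K1 and H2-D1 have near-identical relatives in the complex and the mice were of mixed background, so how reads were split between such copies is uncertain. Reads aligned to more than 1 place, which were not assigned to genes, equalled 45.4% to 57.9% of all lines counted per library.

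Tap1 and Tap2 encode the subunits that pair to form the peptide transporter. Tap1 was at 13.8, 23.03, 34.0, 10.4, 13.7, 24.4, 23.7, 71.3, 52.5 and 38.0 CPM in tumours 04 to 13, a 6.84-fold range. Tap2 was at 20.3, 22.6, 27.2, 17.1, 21.2, 15.7, 25.0, 64.4, 36.1 and 31.2 CPM, a 4.11-fold range. Both were highest in tumours 11, 12 and 13, without overlap with the other 7 tumours. Tapbp encodes tapasin, which holds the class I molecule at the transporter. It ranged from 125 CPM (tumour 07) to 282 CPM (tumour 11), a 2.26-fold range, and tumours 04 and 10, at 199 and 202 CPM, lay above tumours 12 and 13, at 166 and 176 CPM.

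The immunoproteasome subunits had wide ranges, apart from Psmb10. Psmb8 was at 12.6, 13.0, 18.9, 7.20, 9.18, 15.5, 12.9, 81.6, 36.8 and 31.3 CPM in tumours 04 to 13. Psmb9 was at 5.55, 4.72, 8.25, 4.80, 4.06, 7.74, 6.88, 36.8, 27.1 and 15.2 CPM. For both, each of tumours 11, 12 and 13 was above each of the other 7, and the ranges were 11.3-fold and 9.08-fold. Psmb10 ranged from 23.1 CPM (tumour 07) to 62.6 CPM (tumour 11), a 2.71-fold range. Its second highest value, 45.1 CPM, was in tumour 04.

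Nlrc5, the transactivator of class I genes, had the widest range of the 10, 15.1-fold. Its values in tumours 04 to 13 were 3.37, 2.81, 8.19, 1.94, 7.34, 6.98, 3.92, 24.5, 29.2 and 11.7 CPM. Tumours 11, 12 and 13 again did not overlap with the others. The SD of log2 CPM over the 10 tumours was 1.27 for Nlrc5, 1.09 for Psmb9, 1.04 for Psmb8 and 0.88 for Tap1. The smallest, 0.38, were those of H2-D1 and Tapbp. The median SD was 0.57 over the 10 genes and 0.33 over all 12462 genes tested.

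**Figure D1:**
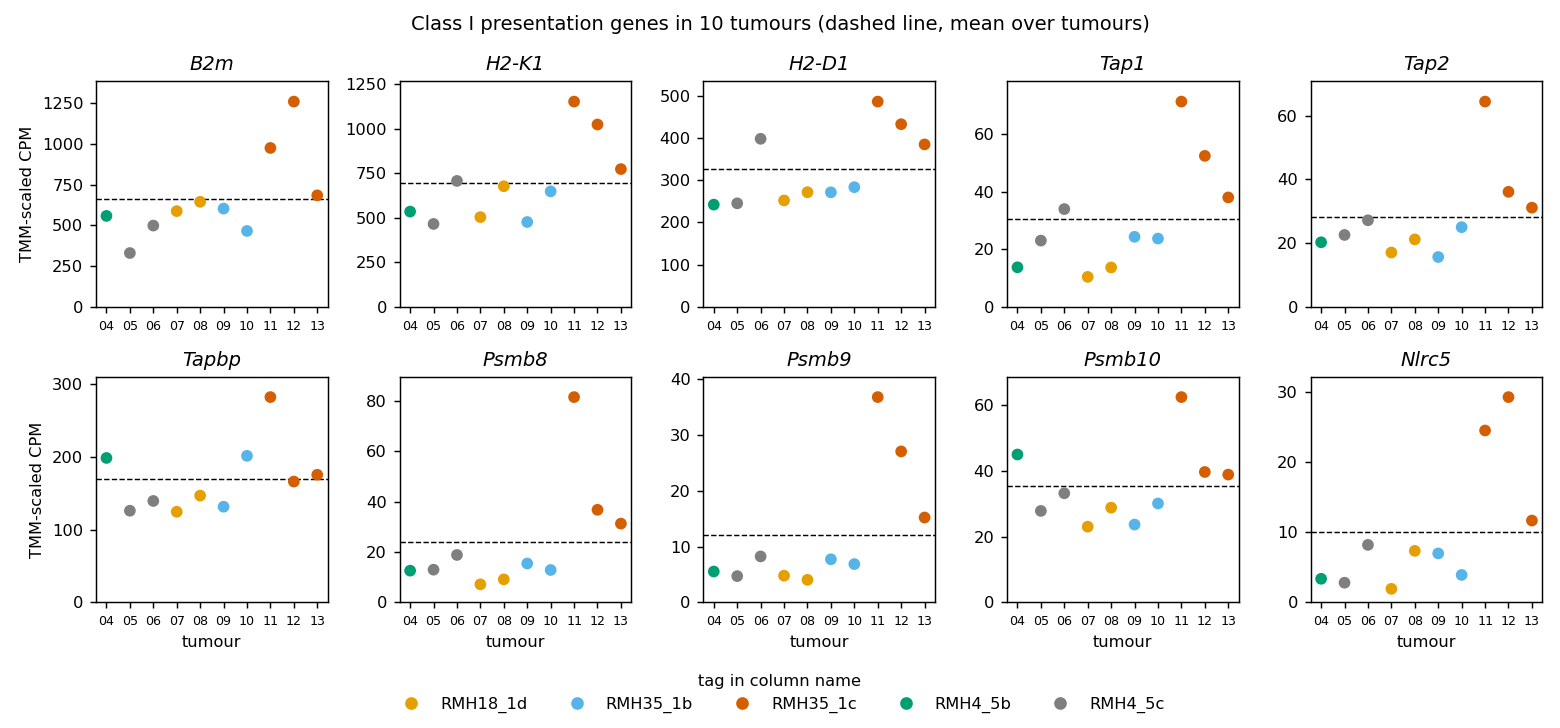
TMM-scaled CPM of each of the 10 genes (vertical axes, from 0) in tumours 04 to 13 (horizontal axes), 1 point per tumour, coloured by the tag in the column name, with a dashed line at the mean. The 3 tumours of tag RMH35_1c are the highest for 7 genes, and tumours 04, 06 or 10 reach among them for Psmb10, H2-D1 and Tapbp.

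Per kilobase of the canonical transcript, B2m was the most abundant at 609 ± 248 CPM per kilobase (SD, n = 10), followed by H2-K1 at 430 ± 144 and H2-D1 at 154 ± 42.3. The ranges of B2m (304 to 1160) and H2-K1 (288 to 712) overlapped, whereas the lowest H2-K1 value was above the highest H2-D1 value of 229. Tapbp stood at 56.9 ± 16.4 and Psmb10 at 26.9 ± 9.10 CPM per kilobase. Psmb8 (14.0 ± 13.2), Tap1 (9.82 ± 6.19), Psmb9 (8.95 ± 8.25) and Tap2 (7.06 ± 3.58) had lower means and overlapped with each other across tumours. The highest values of Psmb8 (47.9), Psmb9 (27.2) and Tap1 (22.97) also lay above the lowest value of Psmb10, 17.6. Nlrc5 was last, at 1.32 ± 1.24 CPM per kilobase, and its highest value of 3.86 was below the lowest value of Tap2, 3.94, but above those of Tap1, 3.36, and Psmb9, 3.00.

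The grouping of tumours 11, 12 and 13 by their tag was noticed after the values were seen, so their difference from the other 7 is given as a description, with no test. In 7 of the 10 genes each of the 3 tumours was above each of the other 7, a pattern found in 3.19% of all genes tested. In 5 of them (Nlrc5, Psmb9, Psmb8, Tap1 and Tap2) the mean was also over 2-fold higher, as in 0.449% of all genes. The opposite order, each of the 3 below each of the other 7, was found in none of the 10 genes and in 3.48% of all genes. The ratio of means was 4.41 for Nlrc5, 4.40 for Psmb9, 3.91 for Psmb8, 2.64 for Tap1, 2.06 for Tap2, 1.85 for B2m and 1.71 for H2-K1. It was 1.55 for both Psmb10 and H2-D1 and 1.36 for Tapbp, whose groups overlapped.

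Genes next to these in the pathway did not all share the pattern. Of 9 other genes of peptide trimming, folding and loading, only Erap1, the aminopeptidase that trims peptides in the endoplasmic reticulum, had each of the 3 tumours above the other 7, at 64.3 ± 1.50 against 46.7 CPM. Calr, Canx and Pdia3, chaperones of the loading complex, had ratios of 0.812, 1.09 and 1.03. None of the 3 constitutive catalytic subunits and none of 18 other proteasome genes showed it, and Psma2 was lower in the 3 tumours. Of the 15 class I-like genes tested, 4 showed it. They were H2-Q6, H2-Q7, H2-T22 and H2-T24, with ratios of 2.79, 2.76, 1.81 and 2.18, and they share the uncertainty of near-identical copies.

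Among the 28 regulators tested, Irf1, Irf9 and Rfx5 were above the other 7 in each of the 3 tumours. Irf1, an interferon-induced transcription factor, was at 47.7 to 75.0 against 23.8 to 38.2 CPM, a ratio of 2.05, and Irf9 had a ratio of 2.15. Rfx5, a subunit of the complex that binds the X box of class I and class II promoters, was at 20.4 to 26.1 against 12.1 to 20.2 CPM, a ratio of 1.35. Ifngr1, the ligand-binding chain of the interferon-γ receptor, and Ptpn2, a phosphatase that acts on JAK and STAT proteins, were below the other 7, with ratios of 0.506 and 0.661. Of 14 interferon-γ response genes tested, 8 were above the other 7. Igtp, an interferon-induced GTPase, was at 151 to 184 CPM in the 3 tumours and at 14.6 to 42.7 CPM in the others, a ratio of 7.62. Of 17 type I interferon response genes only Bst2 and Ifih1 were above.

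Some markers of other cell types moved with the same tag. Of 13 endothelial genes tested, 4 were lower in each of the 3 tumours (Pecam1, Cdh5, Tie1 and Vwf), and the 14 listed genes summed to 107 to 116 CPM there and to 119 to 720 CPM in the others. Of 11 stellate cell and fibroblast genes, 4 were lower, and their sum was 260 to 326 against 385 to 1881 CPM. Of 4 haemoglobin and erythroid genes tested, 3 were lower, and the list summed to 101 to 126 against 219 to 6181 CPM. None of 9 macrophage, 5 dendritic cell and class II and 2 cholangiocyte genes tested separated the 3 tumours. Macrophage genes summed to 257 to 387 CPM in the 3 tumours and 192 to 574 CPM in the others, dendritic cell and class II genes to 163 to 436 against 58.1 to 264 CPM, and the 5 listed cholangiocyte genes to 13.6 to 59.2 against 59.9 to 145 CPM. T and NK cell markers were near the floor in all tumours, and none of the 22 listed passed the filter on low counts. Their sum was 8.61 to 20.8 CPM in the 3 tumours and 2.87 to 12.1 CPM in the others. Cd3e was at 0.097 to 0.757 CPM over the 10 tumours, and Ifng, the gene of interferon-γ itself, had 4 counts in total. Fewer cells of a type and less RNA per cell cannot be told apart in whole tumours, and the part of these markers in the class I values was not tested beyond the slopes below.

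**Figure D2:**
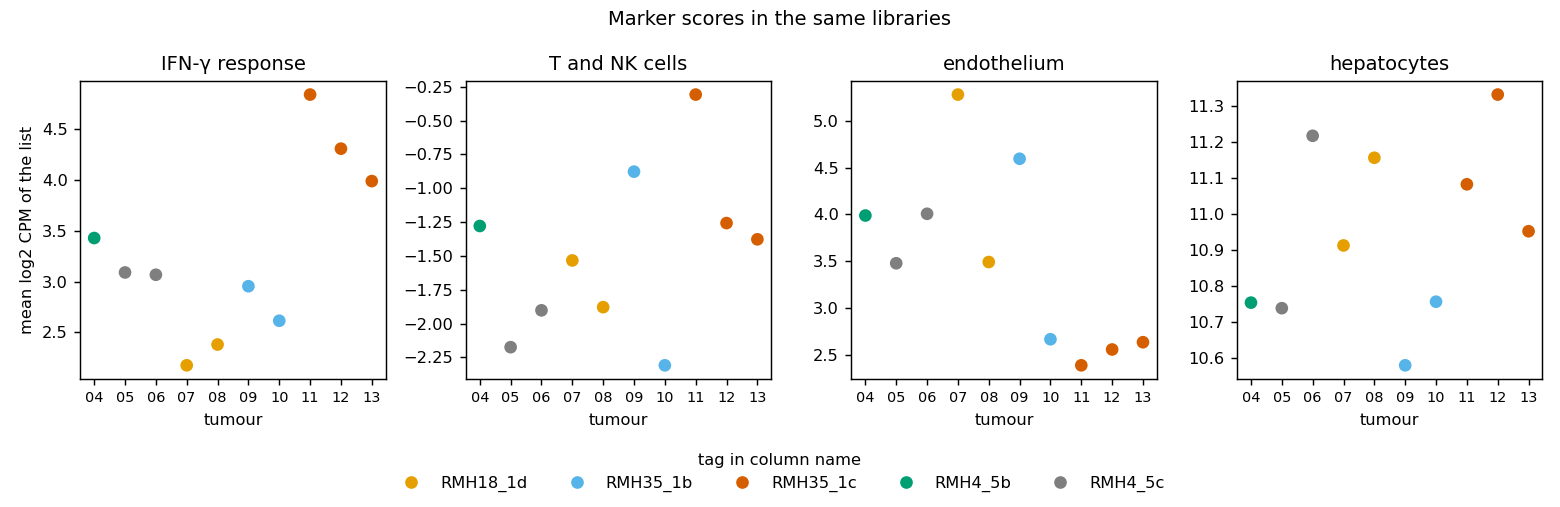
Mean log2 CPM of 4 marker lists (vertical axes, which do not start at 0) in tumours 04 to 13, coloured by tag. Tumours 11, 12 and 13 have the highest interferon-γ response scores, 3.99 to 4.84, and the lowest endothelial scores, 2.39 to 2.64, while their T and NK cell and hepatocyte scores overlap with those of the other tumours.

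Differences among the 5 tags were tested with edgeR's quasi-likelihood F-test and Benjamini-Hochberg adjustment over all 12462 genes. None of the 10 genes passed the threshold of 0.05, and 0.425% of all genes did. The lowest adjusted p of edgeR were 0.0561 for Psmb9, 0.0567 for Tap1 and 0.0759 for Psmb8, and the highest was 0.518 for Tapbp. Unadjusted p-values of the 10 genes ran from 0.00038 to 0.18. Among the other listed genes, the interferon-γ response genes Igtp (adjusted p = 0.00545 in edgeR), Irgm2 (0.0190) and Cxcl9 (0.0145) passed. DESeq2 called 6 of the 10 genes and 1207 of all 12462 (9.69%). Without tumour 04, the only one of its tag, edgeR called 3 of the 10 genes and 135 of all 12557 tested (1.08%). In data simulated for this comparison, the test recovered 3% of genes made to differ by 1 on the log2 scale. Of genes made to differ by 2 it recovered 62%. The simulated difference set tag RMH35_1c against the other tags, a grouping noticed after the values were seen. The simulated noise included the real differences between tags, so these shares may understate the power.

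Ratios within a library do not depend on the scaling between libraries. Psmb8 replaces Psmb5, Psmb9 replaces Psmb6 and Psmb10 replaces Psmb7 in the immunoproteasome. Per kilobase, Psmb8 was at 0.414, 0.299, 0.322, 0.211, 0.310, 0.343, 0.208, 1.45, 0.816 and 0.467 of Psmb5 in tumours 04 to 13. The ratio of Psmb9 to Psmb6 was 0.0591 to 0.158 in tumours 11, 12 and 13 and 0.0172 to 0.0433 in the other 7. For both pairs the 3 tumours did not overlap with the others, and their mean ratios were 3.02 and 3.89 times those of the others. The ratio of Psmb10 to Psmb7 was 0.157 to 0.509, highest in tumour 04, and the 3 tumours (0.276 to 0.490) lay within the range of the others. The constitutive partners varied less, with Psmb5 at 29.8 to 67.1, Psmb6 at 130 to 218 and Psmb7 at 78.4 to 131 CPM. The level of a ratio depends on the length assumed. Psmb8 was above Psmb5 in tumour 11 with the canonical length, but with the union of all exons its highest ratio was 0.760. With that length the mean log2 ratio of Psmb10 to Psmb7 went from -1.84 to 0.13, while differences between tumours were unaffected.

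**Figure D3:**
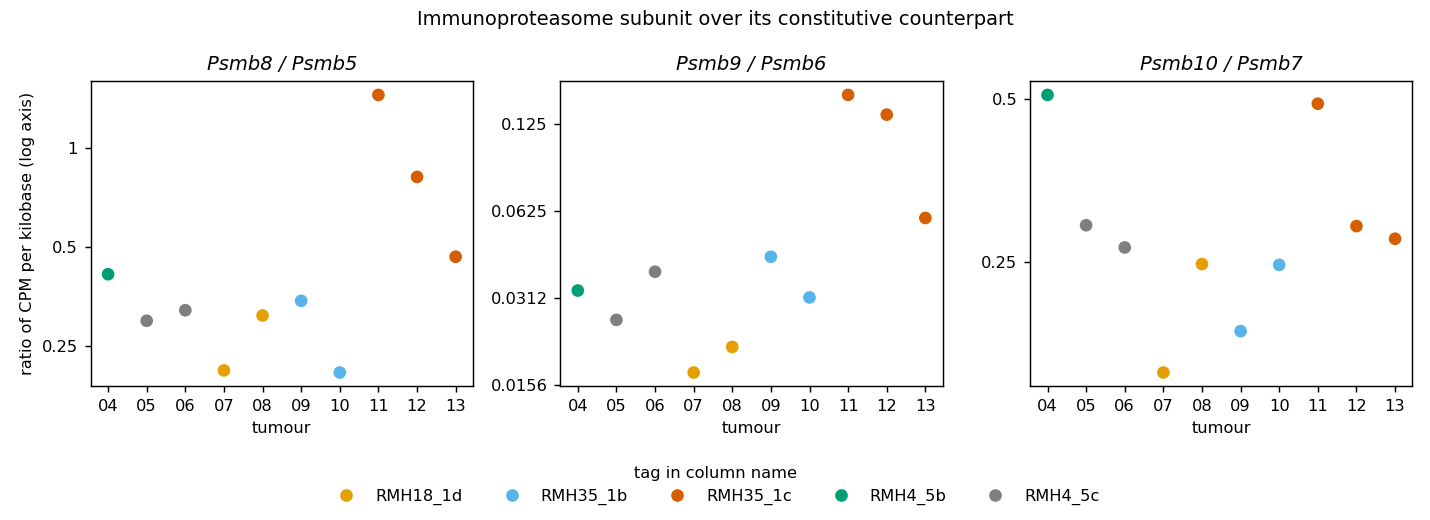
Ratio of CPM per kilobase of each immunoproteasome subunit to the constitutive subunit that it replaces (log2 vertical axes), in tumours 04 to 13, coloured by tag. Tumours 11, 12 and 13 are the highest for Psmb8 to Psmb5 and Psmb9 to Psmb6, and tumour 04 is the highest for Psmb10 to Psmb7.

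To ask which genes vary with interferon-γ response genes, each gene was fitted against their mean log2 CPM, a score that holds none of the 10 genes. In this fit 0.0802% of all genes rose with the score and 0% fell. Among the 10 genes Psmb8 and Psmb9 rose. The slope of Psmb8 was 1.17 ± 0.11 log2 CPM per unit of score (SE, adjusted p = 0.00439, edgeR), and that of Psmb9 was 1.18 ± 0.15 (adjusted p = 0.0161, edgeR). Slopes of the other 8 genes were positive but did not pass, from 0.30 ± 0.11 for Tapbp (adjusted p = 0.501, edgeR) to 1.15 ± 0.25 for Nlrc5 (adjusted p = 0.219, edgeR). Tap1 had a slope of 0.87 ± 0.15 (adjusted p = 0.105, edgeR). The median slope was 0.52 over the 10 genes and -0.01 over all genes. Both score and genes came from the same libraries, so this is an association. Neither gene was called without tumour 11, with the score taken as the median of its genes (slopes of 1.00 for Psmb8 and 0.995 for Psmb9), or with the first part of the tag as a covariate (1.09 and 1.08). Over all genes both of these last fits called 0 genes in edgeR, with 508 and 808 at an unadjusted p under 0.05, against 141 called by DESeq2 without them. With the short nuclear RNAs as a covariate 1 gene of all was called, Psmb8, and Psmb9 was also not called without tumour 08 or without tumour 12. With the whole tag as a covariate the slopes were 1.55 for Psmb8 and 1.17 for Psmb9, and within the 7 tumours of the other tags they were 0.82 and 0.38, with none of the 10 genes called in either fit.

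Of the 14 interferon-γ response genes tested, which are part of the score, 5 rose with it, among them Igtp, Irgm2, Gbp2 and Irf1, and of the 28 regulators 2 rose, among them Irf1. The constitutive subunits did not pass, with slopes of 0.20 ± 0.14 for Psmb5, -0.01 ± 0.10 for Psmb6 and 0.02 ± 0.10 for Psmb7. Rfx5 had a slope of 0.15 ± 0.11 (adjusted p = 0.768, edgeR). None of 9 loading genes, 15 class I-like genes and 17 type I interferon response genes passed.

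The slope on the endothelial score was negative for all 10 genes, and Tap2 alone fell, by 0.52 ± 0.12 log2 CPM per unit of score (SE, adjusted p = 0.0469, edgeR). Of all genes 0.217% fell with this score and 2.77% rose, the latter including all 13 endothelial genes tested, which the score holds, and 8 of 11 stellate cell and fibroblast genes. Nlrc5 had a slope of -0.98 ± 0.29 (adjusted p = 0.116, edgeR), Psmb8 of -0.87 ± 0.22 (adjusted p = 0.0659, edgeR) and B2m of -0.26 ± 0.15 (adjusted p = 0.536, edgeR). Of the interferon-γ response genes, Igtp and Irgm2 fell. The call of Tap2 was lost without any 1 of tumours 04, 06, 07, 08, 09, 11, 12 and 13. It was also lost with the short nuclear RNAs (slope -0.64) or the first part of the tag (-0.51) as a covariate. Over all genes, edgeR called 269 to 346 without each of these tumours, 291 with the first covariate and 347 with the second. The slope of Tap2 was -0.28 with the tag as a covariate and -0.24 within the 7 tumours of the other tags. Tap2 was not called in these fits either.

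**Figure D4:**
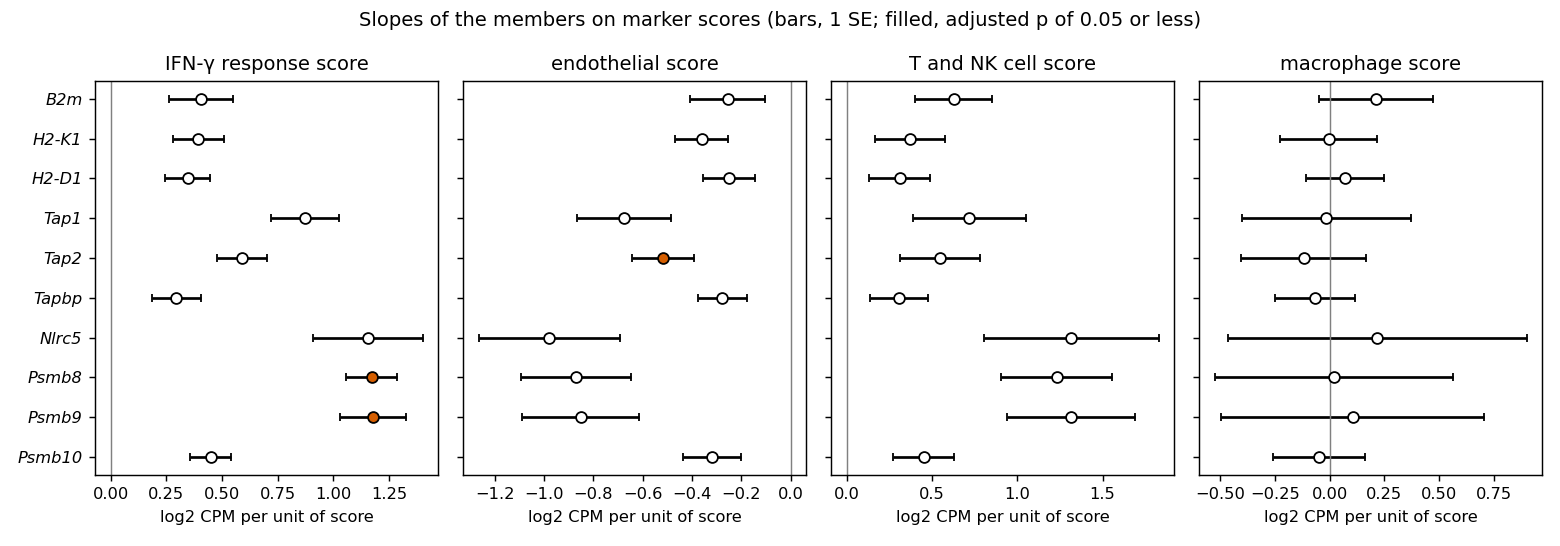
Slope of each gene on 4 marker scores (horizontal axes, log2 CPM per unit of score, with bars of 1 SE), fitted over the 10 tumours. Filled points passed the adjusted threshold, which were Psmb8 and Psmb9 for the interferon-γ response score and Tap2 for the endothelial score, and macrophage slopes lay close to 0.

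None of the 10 genes passed for the T and NK cell, macrophage, β-catenin target or MYC target scores. The T and NK cell score gave 0% of genes called in either direction by edgeR, although 872 had an unadjusted p under 0.05 and DESeq2 called 25. Slopes of the 10 genes on it were positive, the largest 1.32 ± 0.51 for Nlrc5 and 1.31 ± 0.38 for Psmb9 (adjusted p = 0.687 for both, edgeR), and this score rests on genes near the detection floor. The macrophage score gave 0% as well (897 unadjusted, 125 by DESeq2), with slopes of the 10 genes from -0.12 ± 0.29 for Tap2 to 0.22 ± 0.68 for Nlrc5. The MYC target score also gave 0% (747 unadjusted, 27 by DESeq2). With the β-catenin target score 0.0401% of genes rose and 0.016% fell (381 called by DESeq2), and among the 10 genes the slope closest to passing was that of Tapbp, 0.43 ± 0.30 (adjusted p = 0.536, edgeR). DESeq2 called none of the 10 genes for these 4 scores.

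Likeness was measured as Pearson's r of log2 CPM over the 10 tumours, which share libraries and tags, and is a description. Over the 45 pairs of the 10 genes r ran from 0.457 (B2m and Tapbp) to 0.962 (Psmb8 and Psmb9), with a median of 0.809. Psmb9 was the closest of all 12461 other genes to Psmb8 and the reverse also held. Tap1 was second for Psmb8 (r = 0.950), and for Tap1 the closest were Irf9 (0.958), Gm5970 (0.958) and Psmb8 (0.950). Nlrc5 was closest to Parp12 (0.974), H2-Q7 (0.969) and Gm11914 (0.957), and H2-D1 to H2-Q7 (0.959), Nkrf (0.942) and Parp9 (0.932). Psmb9 was followed by Dtx3l (0.957) and Parp9 (0.953), and the third for Psmb8 was Stat2 (0.943).

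The remaining genes had closest partners outside the pathway. They included Dexi and Gjb1 for H2-K1 (r = 0.962 and 0.955), Gripap1, Capn15 and Med12 for Tap2 (0.930 to 0.950), and 1700066M21Rik, Nuak2 and Bmp1 for B2m (0.947 to 0.951). Tapbp was closest to Pdxk, Tafazzin and Habp4 (0.930 to 0.941), and Psmb10 to Bend3, Ctcflos and Gm12852 (0.912 to 0.934). Among the 100 closest genes there were 6 of the other 9 for Psmb8, Psmb9, Tap2 and H2-D1, 5 for Tap1, Nlrc5 and H2-K1, 4 for Psmb10, 1 for Tapbp and 0 for B2m. H2-K1 and H2-D1 ranked 9 and 8 for each other (r = 0.919).

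**Figure D5:**
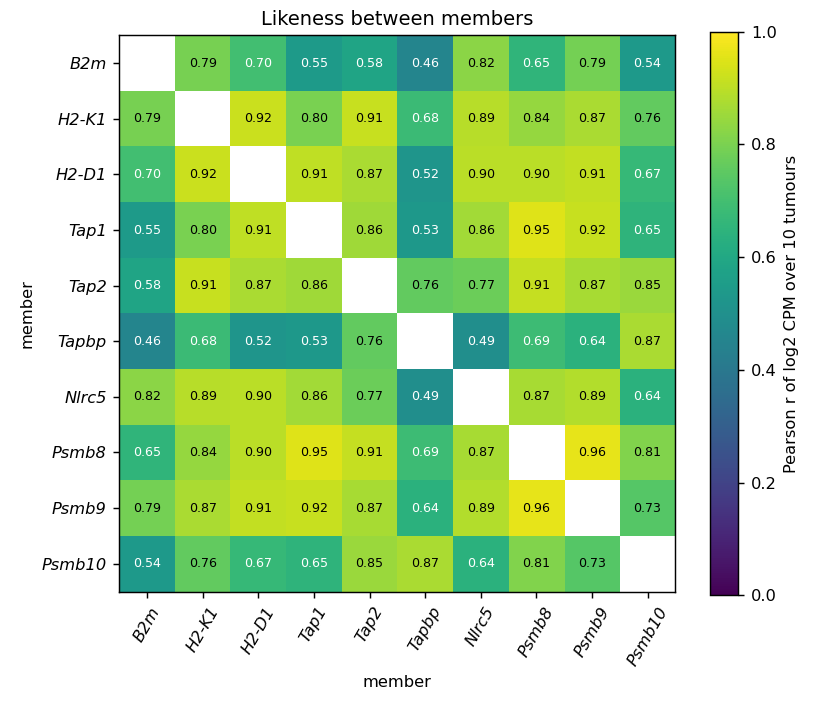
Pearson's r of log2 CPM over the 10 tumours for each pair of the 10 genes, with colour from 0 to 1. Psmb8 and Psmb9 are the most alike at 0.96, and Tapbp and B2m the least at 0.46.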

How the data were processed

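Polyadenylated RNA of whole tumours was sequenced after Trizol extraction and a stranded kit. The authors deposited raw read counts per gene. The submitters' processing notes name TopHat2, HTSeq and GRCm38, whereas versions and the strand setting are not given in the sources used here. Columns were matched to tumours by the number in the title, assuming that it is the library number, and 9 of 19 columns were not used. The 5 summary lines that name no gene were left out of library sizes. Among them, reads with no feature equalled 3.60% to 6.97% of all lines counted and ambiguous reads 1.16% to 1.66%.

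Gene symbols came from GENCODE M39 by stable identifier (34199 of 39179 matched), and transcript lengths from its canonical transcripts. Positions and promoters were taken from RefSeq (GRCm38.p6). Counts were scaled by TMM, filtered with filterByExpr for 1 group and tested with glmQLFit and glmQLFTest in edgeR 4.0.16 (R 4.3.3, limma 3.58.1) with Benjamini-Hochberg adjustment over all 12462 genes at 0.05. Log2 CPM used a prior count of 2, and a score is the mean log2 CPM of the listed genes with at least 10 counts. DESeq2 1.42.0 was an alternative, as were RLE factors, no filter, covariates for tag, tag family and the short nuclear RNAs, a median score, and leaving out each tumour. The tests were run on simulated data with 200 genes made to change. For the interferon-γ response score, 88% of genes with a slope of 1 were recovered, with 9 false calls among 201 calls. The real fit called only 10 genes, so a gene needed a lower unadjusted p there to pass. The 88% therefore does not give the power for the members that did not pass. Python 3.11.15, numpy 2.4.6, pandas 2.3.3 and matplotlib 3.10.9 served for the rest. The floors of 3 counts cover counting error only, whereas SD and SE include the spread between tumours.

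The members and gene lists were chosen with earlier results of these data known. Named genes were all 10 members, up to 3 called genes per list by adjusted p, the fixed partners Psmb5, Psmb6 and Psmb7 and the regulators Irf1 and Rfx5, and the 3 genes most like each member. Names given in the description of tag RMH35_1c and among cell type markers were chosen after their values were seen. Of the 294 listed symbols 8 had no match. Some genes that this rule selects are not reported here.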

Additional observations from a re-analysis of the deposited data

Results flagged for a closer look

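In 35 measures over the 10 tumours (the 10 genes, the 3 proteasome ratios and 22 list scores), the gap between the most extreme tumour and its neighbour was compared with the range by Dixon's criterion, and 1 measure exceeded it. The MYC target score was highest in tumour 06, at 6.33 against 5.99 log2 CPM in the next tumour, with a gap of 0.524 of the range. Chance flags about 1 in 20 such groups, or 1.75 of 35, and none of the 10 class I presentation genes or ratios was flagged. The largest gaps among the genes were those of tumour 11 for Tapbp (0.412) and Tap2 (0.410).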

How the results depend on the processing

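No paired analysis was possible because the tumours form 1 group and no sample of another group could be matched. Depth limits rare transcripts, and none of the 22 T and NK cell and 6 neutrophil genes listed passed the filter on low counts. Of the 10 genes, the number called for the interferon-γ response score was 2, against 6 with DESeq2, 1 with the short nuclear RNAs as a covariate, and 0 with a median score, with tag family or tag as a covariate and within the 7 tumours of the other tags, and leaving out 1 tumour gave 0 to 3. For the endothelial score it was 1, against 6 with DESeq2, 3 with a median score and 0 with the short nuclear RNAs, tag family or tag as covariates and within the 7 tumours, and leaving out 1 tumour gave 0 to 2. For the tags it was 0, against 4 with no filter and 6 with DESeq2, and leaving out 1 tumour gave 0 to 3. For the T and NK cell, macrophage, β-catenin and MYC target scores it was 0 throughout. The slopes of Psmb8, Psmb9 and Tap2 kept their sign in all alternatives. RLE factors changed none of these counts. The tag covariate, the 7 tumours and the union of exons were chosen after seeing the data. With the union of exons the mean log2 ratio went from -1.33 to -2.25 for Psmb8 to Psmb5 and from -1.84 to 0.13 for Psmb10 to Psmb7. The median over the 10 genes of the highest over the lowest CPM was 3.96, and 3.94 without TMM and 4.04 with RLE factors. Over all genes, edgeR called 53 for the tags, against 973 with no filter, 1207 by DESeq2 and 9 with the short nuclear RNAs. It called 1 with tag family, 0 within the 7 tumours, and 0 to 167 leaving out 1 tumour. For the interferon-γ response score it called 10, against 17 with no filter, 141 by DESeq2 and 1 with the short nuclear RNAs. That count was 0 with a median score, tag family or tag, 1 within the 7 tumours, and 0 to 11 leaving out 1 tumour. For the endothelial score 372 genes were called, against 533 with no filter, 639 by DESeq2 and 356 with a median score. With covariates 291 were called for the short nuclear RNAs, 347 for tag family and 35 for tag. Within the 7 tumours 28 were called, and leaving out 1 tumour gave 269 to 474. For the β-catenin target score 7 were called, against 381 by DESeq2, 48 with the short nuclear RNAs and 31 with a median score. There it was 0 with tag family, tag or within the 7 tumours, and 0 to 22 leaving out 1 tumour. For the macrophage score 6 genes were called with RLE factors and 70 without tumour 05. For the T and NK cell score 1 gene was called without tumour 07 and 1 without tumour 12, and for the MYC target score 3 with tag family.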

Other observations

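Genes of MHC class II, which presents peptides to CD4+ T cells, did not separate tumours 11, 12 and 13 from the others. H2-Aa was at 21.1 to 49.1 CPM in these 3 and at 6.44 to 39.2 CPM in the other 7, and Cd74, the invariant chain, at 95.1 to 271 against 31.5 to 140 CPM. Ciita, the class II counterpart of Nlrc5, was at 1.81 to 5.80 against 0.182 to 2.73 CPM and was too low in some tumours to be tested. These genes were chosen after their values were seen.

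Of 13 listed ligands of NK cell receptors 4 were tested, and Clec2d had each of the 3 tumours above the other 7, at 20.3 to 55.5 against 7.79 to 19.8 CPM. Pvr was at 26.8 to 39.6 against 28.1 to 148 CPM, with the highest value in tumour 05. Cd274, which encodes PD-L1, was at 3.22 to 5.55 CPM in tumours 11, 12 and 13 and at 1.10 to 5.10 CPM in the others, and Pdcd1 had 24 counts over the 10 tumours. Vsir, which encodes the checkpoint protein VISTA, rose with the endothelial score with a slope of 0.73 ± 0.11 (adjusted p = 0.0034, edgeR).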
